A study of Rattus norvegicus with 27 samples.

Results

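The comparison described here sets rat oligodendrocyte precursor cells (OPCs) kept for 96 h in thyroid hormone (T3) with interferon gamma (T3+IFNγ) against OPCs kept for 48 h in T3 alone, and asks whether the IFNγ-treated cells resembled an earlier stage of T3 differentiation once interferon genes were set aside. It rests on 6 of the 27 arrays of the series, 3 of T3+IFNγ at 96 h and 3 of T3 at 48 h, which the labels tie to the same 3 donors. The cells came from the cortex of rat pups at postnatal day 4 to 6, were selected with beads against the OPC surface marker A2B5, were expanded in PDGF, a mitogen under which OPCs go on dividing, and were differentiated by taking PDGF away and adding T3. All groups but PDGF at 0 h share that withdrawal. The labels give neither strain nor sex, and they do not say whether a donor is 1 pup or a pool. The T3+IFNγ and T3 cells compared here differ in IFNγ and also in 48 h of culture, so T3 at 96 h and the earlier T3 stages (0, 8 and 24 h) are given beside them.

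OPCs leave the cell cycle when they differentiate, pass through a short-lived newly formed stage marked by genes such as Bmp4, Enpp6 and Bcas1, and then switch on the proteins and lipids of the myelin sheath. Some myelin genes, such as Mbp and Cnp, come on early, and others, such as Mog, Mal, Opalin and Mobp, come on in late oligodendrocytes. IFNγ acts through its receptor on genes with a GAS element, and induces transcription factors of the IRF family that act on the ISRE element of further genes.

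Each of 14218 genes was read from its brightest probe set as a log2 signal, where a difference of 1 is 2-fold, and was called higher or lower at a limma adjusted p under 0.05 with the donor as a block. With all genes kept, 2503 were higher in T3+IFNγ cells at 96 h than in T3 cells at 48 h (17.6% of those tested) and 2626 were lower (18.5%). Genes of the interferon lists and genes that IFNγ raised at 8 h, 693 in all, were then set aside. Of the other 13525 genes, 2025 were higher (15.0%) and 2599 lower (19.2%), and 414 and 356 of these differed by at least 2-fold. With each array centred on its median the same counts were 1516 higher and 3768 lower, so the balance of directions among small changes depends on the scaling. The median difference over the 13525 genes was −0.051. Without donor 3 the counts were 1075 higher and 1279 lower, against 1471 and 1614 without donor 2 and 1993 and 2611 without donor 1.

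T3 at 48 h was not the stage with the fewest differences. With interferon genes set aside, T3+IFNγ cells at 96 h differed from PDGF cells at 0 h in 7161 genes, from T3 cells at 8 h in 6391, from T3 cells at 24 h in 5580, from T3 cells at 48 h in 4624 and from T3 cells at 96 h in 2203. The count against T3 at 96 h was 955 without donor 3, 1288 without donor 2 and 1840 without donor 1, and 3338 with each array centred on its median. With all genes kept, 1562 were higher than in T3 cells at 96 h (11.0%) and 1123 lower (7.90%). The counts at 2-fold or more ran in the same order, 2267, 1621, 969, 770 and 325. The root mean square (RMS) difference per gene between arrays of the same donor was 0.546 ± 0.045 to T3 at 48 h and 0.418 ± 0.051 to T3 at 96 h (SD, n = 3 donors). Donor by donor it was 0.534, 0.507 and 0.596 to T3 at 48 h and 0.469, 0.367 and 0.419 to T3 at 96 h, and T3 at 96 h was the nearest T3 stage in 3 of 3 donors. Correlations across genes ran the same way and are a description only, at 0.968 to 0.976 with T3 at 48 h and 0.979 to 0.988 with T3 at 96 h. Arrays of different donors within T3+IFNγ at 96 h were 0.262 to 0.265 apart, so both distances exceeded the spread between donors.

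**Figure D1:**
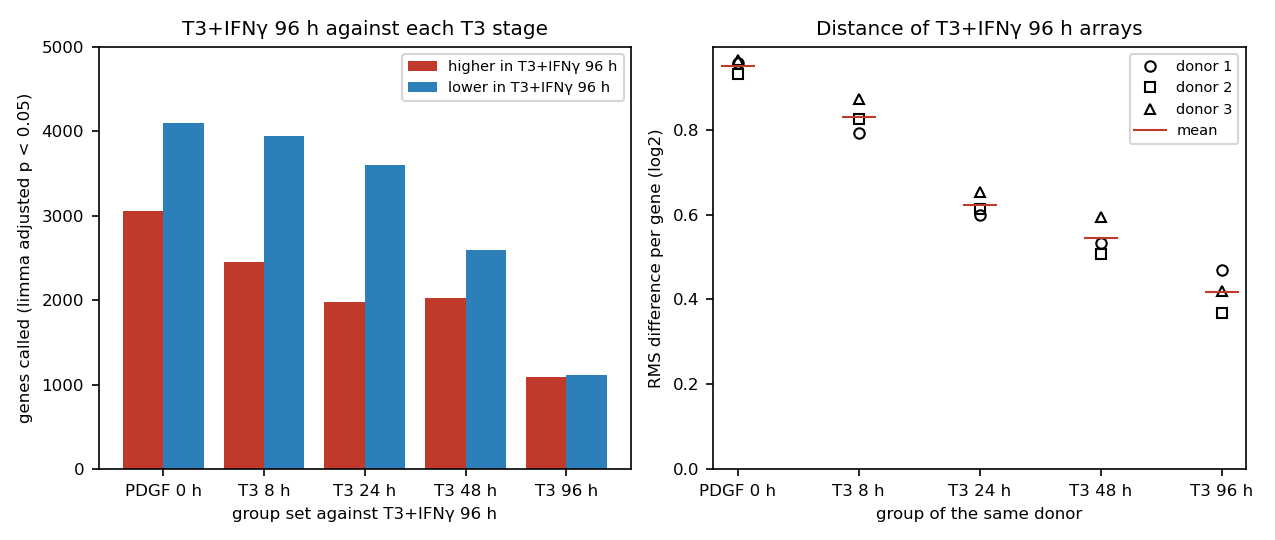
Left, bars give the number of genes called higher or lower in T3+IFNγ cells at 96 h than in each T3 stage, with interferon genes set aside. Right, points give the RMS log2 difference per gene between each donor's T3+IFNγ 96 h array and that donor's array of each stage. Both fall towards T3 at 96 h, where 1087 genes were higher and 1116 lower.

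Along the change that T3 cells made between 48 h and 96 h, T3+IFNγ cells at 96 h had covered 71.3 ± 10.2% of the way (SD, n = 3 donors). The direction of the change was taken each time from the other donors. Change off that direction is left out of the share. The whole T3 step was 0.525 to 0.578 RMS within donors, and T3+IFNγ cells lay 0.418 ± 0.051 from T3 at 96 h. The share was 60.2% in donor 1, 73.4% in donor 2 and 80.2% in donor 3. It differed between programs, at 40.7 ± 10.2% over 18 myelin protein genes, 42.3 ± 12.8% over 24 late oligodendrocyte genes, 85.5 ± 12.3% over 35 cell division genes and 137 ± 21.9% over 18 sterol synthesis genes. These shares have no test, and the programs share arrays.

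The stage nearest to T3+IFNγ at 96 h therefore depended on the gene list. Cell division genes were 0.540 ± 0.175 (RMS) from T3 at 96 h, and 1.82 ± 0.349 from T3 at 48 h, and T3 at 96 h was nearest in all 3 donors. Septin and tubulin genes of myelin, growth factor feedback genes, fatty acid and myelin lipid genes and ER stress genes were also nearest to T3 at 96 h in all 3 donors. So were the Sox, Hes and Id genes, and the D cyclins and CDK inhibitors. An RMS distance over few genes leans on the largest differences. Against T3 at 48 h, Septin4 differed by 3.42 while the median of its 9-gene list was −0.04. Likewise Mobp differed by 4.94 while the median of the myelin protein list was 0.36. Myelin protein genes were 1.42 ± 0.295 from T3 at 48 h and 1.86 ± 0.357 from T3 at 96 h, and T3 at 48 h was the nearer in donors 1 and 2 but not in donor 3. Sterol synthesis genes were nearest to T3 at 96 h in donors 2 and 3 and to T3 at 8 h in donor 1. Late oligodendrocyte genes and newly formed oligodendrocyte genes were, like the myelin protein genes, nearest to T3 at 48 h in donors 1 and 2 and to T3 at 96 h in donor 3. Thyroid hormone genes were nearest to T3 at 48 h in all 3 donors, at 0.516 ± 0.034, against 0.709 ± 0.133 for T3 at 96 h.

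The interferon genes set aside were the largest differences. Gbp7, a guanylate-binding GTPase of defence against pathogens, had log2 signals of 12.53, 12.34 and 12.58 in T3+IFNγ cells at 96 h, against 5.02, 4.68 and 4.63 in T3 cells at 48 h. The groups were far apart, with a log2 difference of 7.71 (standard error 0.243, adjusted p = 4.46e-16). Ifgga2l1, a gene of the interferon-inducible GTPases, rose by 7.87, Ubd, a ubiquitin-like protein, by 7.66, the GTPase Igtp by 7.58 and Ifit2, which restrains viral protein synthesis, by 7.24, each in 3 of 3 donors. All 7 measured interferon-inducible GTPases rose, as did 13 of 15 class I antigen presentation genes, 8 of 10 class II genes, 14 of 16 interferon signalling genes and 36 of 40 other interferon-stimulated genes. Cd74, the invariant chain of class II molecules, rose by 6.40 and Cxcl10, a T cell attractant, by 5.22. The T3 48 h signals of both were at 4.79 or less, near the low end of the scale and without a detection call in the deposited values, so that differences from such signals may understate the change. Among 24 chemokines and cytokines 14 rose, and Cxcl2, a neutrophil attractant, fell by 0.36 (adjusted p = 0.0216, but 0.174 without donor 1 and 0.166 without donor 3). The 5 genes with the largest rises all lay under 5.99, the median of all values, in the T3 48 h arrays.

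Promoters from RefSeq (assembly GRCr8), running from 250 bases before to 50 after the start of the gene, are shown for 3 of the 5 largest interferon rises because each holds both elements. The promoter of Ubd, also among the 5, held 0 matches of either, and Ifit2 had no entry. The GAS motif was searched as TTCNNNGAA and the ISRE core as TTCNNTTTC, on both strands, and matches stand in capitals.
Ifgga2l1 (chr18:56031657-56031956, plus strand): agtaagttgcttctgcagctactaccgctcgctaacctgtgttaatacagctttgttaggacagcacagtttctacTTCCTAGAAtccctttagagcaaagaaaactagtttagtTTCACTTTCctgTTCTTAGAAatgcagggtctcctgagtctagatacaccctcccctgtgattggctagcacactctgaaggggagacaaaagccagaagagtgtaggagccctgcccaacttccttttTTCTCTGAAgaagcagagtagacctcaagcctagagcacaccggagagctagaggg
Gbp7 (chr2:233948639-233948938, plus strand): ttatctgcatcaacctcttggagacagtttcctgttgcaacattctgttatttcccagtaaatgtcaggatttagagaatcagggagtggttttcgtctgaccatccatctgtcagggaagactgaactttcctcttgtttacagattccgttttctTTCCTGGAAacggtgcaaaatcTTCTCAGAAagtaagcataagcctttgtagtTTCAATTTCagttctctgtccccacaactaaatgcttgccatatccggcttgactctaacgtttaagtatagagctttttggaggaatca
Igtp (chr10:42874797-42875096, plus strand): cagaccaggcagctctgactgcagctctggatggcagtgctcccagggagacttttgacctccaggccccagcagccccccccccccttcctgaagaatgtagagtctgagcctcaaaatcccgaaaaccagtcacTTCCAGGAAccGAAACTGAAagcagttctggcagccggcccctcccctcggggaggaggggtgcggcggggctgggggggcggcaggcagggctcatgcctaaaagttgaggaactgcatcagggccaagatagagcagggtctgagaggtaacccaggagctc
Ifgga2l1 held 3 GAS matches and 1 ISRE match, Gbp7 2 and 1, and Igtp 1 and 1. Of the 265 genes set aside and at least 2-fold higher, 213 had a promoter in the table, of which 14.6% held a GAS match and 32.9% an ISRE match. Of the 414 genes not set aside and at least 2-fold higher, 340 had a promoter, and the shares of these were 6.18% and 8.82%. Of the 356 at least 2-fold lower, 298 had one, with shares of 6.04% and 6.04%. Among all genes tested 11701 had one, and the shares were 6.99% and 7.19%. Over all 27457 promoters of the table they were 8.68% and 9.50%. A match is a string of letters and not a binding site.

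T3 late genes were defined without the arrays compared here, as the 582 genes at least 2-fold higher in T3 cells at 96 h than at 24 h, with interferon genes left out. In T3+IFNγ cells at 96 h, 387 of them (66.5%) were higher than in T3 cells at 48 h, 25 (4.30%) were lower and 170 (29.2%) were not called, with a median difference of 0.71. The median was 0.41, 0.74 and 1.03 in donors 1, 2 and 3. T3 cells themselves had moved by a median of 1.20 from 48 h to 96 h. Against T3 at 96 h, whose arrays also chose these genes, T3+IFNγ cells were lower in 272 and higher in 36. Put together, 186 late genes were higher than at T3 48 h with no call against T3 96 h, 171 were higher than at T3 48 h and lower than at T3 96 h, and 85 were not called against T3 48 h and lower than at T3 96 h. T3 receding genes, 560 genes at least 2-fold lower at 96 h than at 24 h, were lower than at T3 48 h in 254 cases (45.4%), higher in 67 and not called in 239, with a median of −0.34. Of the other 12383 genes, 12.7% were higher and 18.7% lower.

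Of 19 measured myelin protein genes, 6 rose, 2 fell and 11 were not called, with a median difference of 0.36, against −0.04 over all genes. Here and for each list below, the shares over all genes were 17.6% higher and 18.5% lower. Counts and medians over lists keep the members set aside as interferon genes, 1 of these 19. The T3 cells raised 11 of the 19 between 48 h and 96 h. T3+IFNγ cells were below T3 at 96 h in 10 and above it in 0 by limma, against 7.90% and 11.0% of all genes. The share of all genes called in the T3 step from 48 h to 96 h is not given here. Counts of that step, for this and the later lists, therefore have no share beside them. The median T3 change over all genes was −0.023.

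Mobp, a small protein of compact myelin, had log2 signals of 9.78, 11.14 and 11.48 in T3+IFNγ cells at 96 h, against 6.32, 5.55 and 5.72 in T3 cells at 48 h. It was 30.7-fold higher (log2 difference 4.94, standard error 0.297, adjusted p = 2.69e-11) and the groups did not overlap. In T3 cells at 96 h it was higher still, at 13.55, 13.21 and 13.45, so that T3+IFNγ cells were 2.60 below them (adjusted p = 1.05e-06). Donor 1 had the lowest Mobp of the T3+IFNγ cells and the highest of the T3 cells at 48 h.

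Mal, a proteolipid of myelin rafts, had log2 signals of 5.10, 5.20 and 5.61 in T3+IFNγ cells at 96 h and of 4.46, 4.90 and 5.07 in T3 cells at 48 h, all under the median of 5.99. The groups did not overlap, but the difference of 0.49 was not called (adjusted p = 0.0652, but 0.0131 with only these 6 arrays in the fit and 0.0234 without donor 1). In T3 cells Mal averaged 4.41 ± 0.17 at 0 h, 4.40 ± 0.26 at 8 h, 4.30 ± 0.18 at 24 h, 4.81 ± 0.31 at 48 h and 10.24 ± 0.55 at 96 h (SD, n = 3). T3+IFNγ cells at 96 h, at 5.30 ± 0.27, lay 4.94 under T3 cells of the same age (adjusted p = 4.40e-14).

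Opalin, a membrane glycoprotein of late oligodendrocytes, stood between the stages. Its signals were 6.50, 5.46 and 5.78 in T3+IFNγ cells at 96 h and 4.33, 4.05 and 4.06 in T3 cells at 48 h, a rise of 1.77 (adjusted p = 2.02e-05), and T3 cells at 96 h had 10.80, 9.0 and 9.0. Gjb1, a gap junction protein of myelin, rose by 1.65 (adjusted p = 5.42e-08) and lay 1.34 under T3 at 96 h (adjusted p = 1.91e-06). Pllp, a proteolipid of myelin, rose by 1.51 (adjusted p = 4.03e-09) and was not called against T3 at 96 h (difference −0.34, adjusted p = 0.0596). The tetraspanin Cd9 rose by 0.38 (adjusted p = 0.0391).

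Mag, an adhesion protein of the inner myelin membrane, had signals of 11.78, 12.12 and 12.26 in T3+IFNγ cells at 96 h and of 11.83, 11.51 and 11.14 in T3 cells at 48 h. The groups overlapped in donor 1, and the rise of 0.56 (adjusted p = 0.0462) was lost without the donor block, with median centring, with only these 6 arrays or without donor 2 or 3. Mog, a late glycoprotein of the outer myelin surface, was 9.05, 10.52 and 10.64 in T3+IFNγ cells and 9.85, 9.62 and 9.53 in T3 cells at 48 h. It was lower in donor 1 and higher in donors 2 and 3, with a mean difference of 0.41 that was not called (adjusted p = 0.434), and without donor 1 the difference was 1.01 (adjusted p = 0.000262).

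Mbp and Cnp, which come on early, were not called between the groups. Mbp, the basic protein that compacts myelin, was 14.40, 14.40 and 14.43 in T3+IFNγ cells and 14.40, 14.21 and 14.22 in T3 cells at 48 h (difference 0.13, adjusted p = 0.728), close to the highest value of any probe set, 14.49, where the arrays resolve little. The difference of Cnp, an enzyme of uncompacted myelin, was 0.00 (standard error 0.152), and that of Cldn11, the tight junction protein of myelin, was 0.52 (adjusted p = 0.215, but 0.0202 with only these 6 arrays and 0.00875 without donor 1). Pmp22 and Mpzl1, membrane proteins better known from peripheral nerve, fell by 0.57 (adjusted p = 0.00255, and 0.0989 without donor 3) and by 0.65 (adjusted p = 0.000333). Hapln2, a link protein of nodes of Ranvier, and Ermn, a cytoskeletal protein of late oligodendrocytes, differed from T3 at 48 h by 0.04 (adjusted p = 0.84) and 0.30 (adjusted p = 0.187) and from T3 at 96 h by −1.36 (adjusted p = 5.73e-08) and −2.47 (adjusted p = 2.80e-10).

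**Figure D2:**
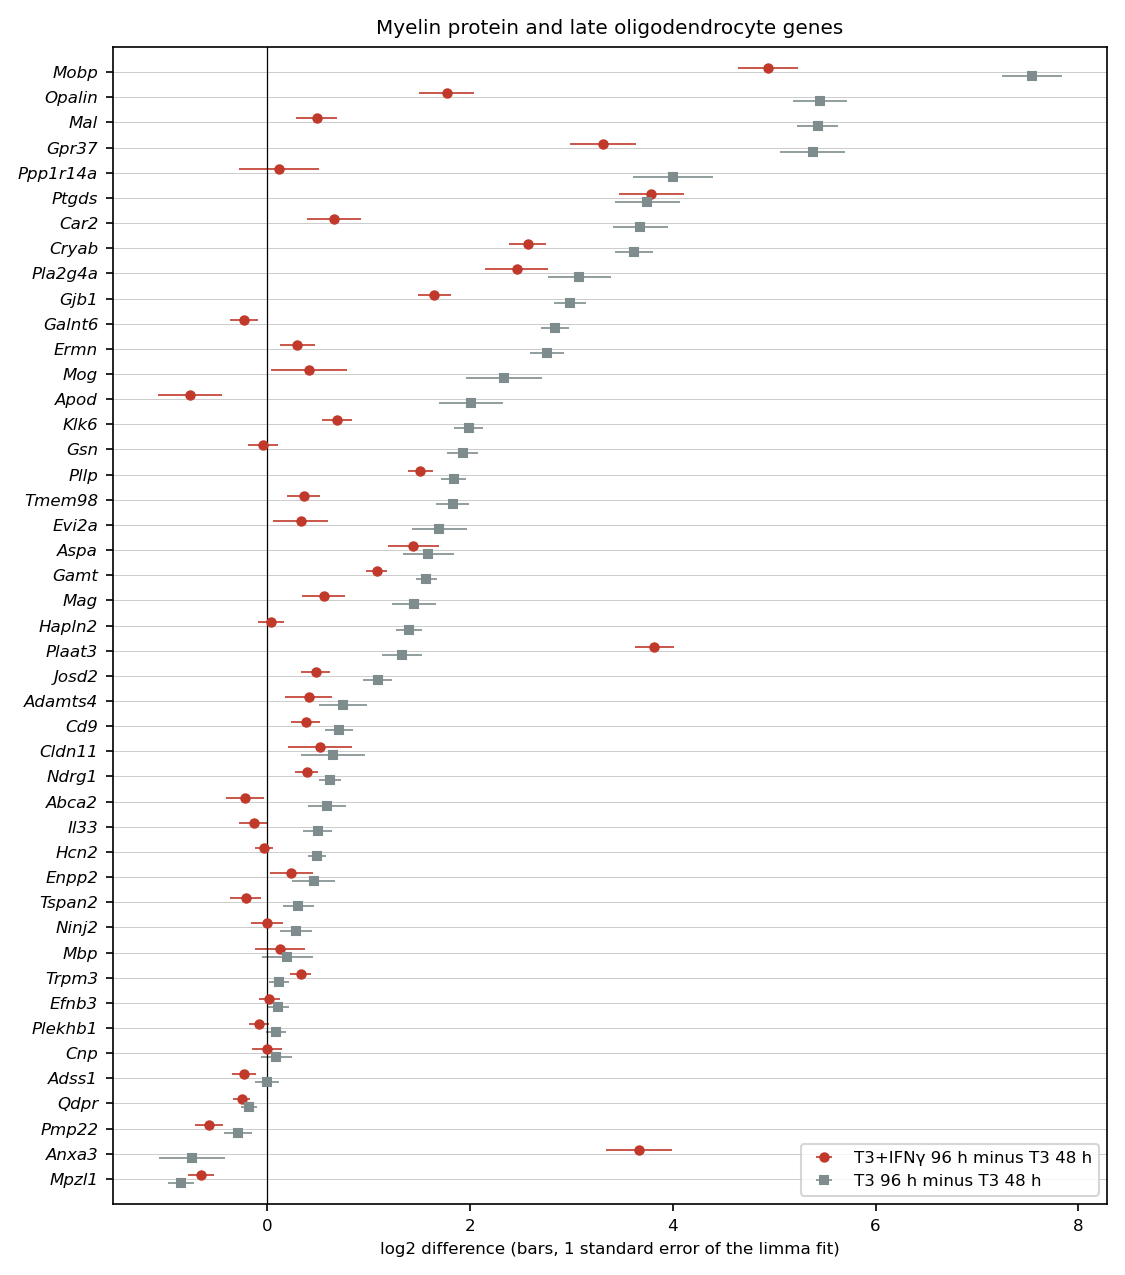
Each row is a gene of the myelin protein or late oligodendrocyte list, ordered by the T3 change. Circles give the log2 difference of T3+IFNγ 96 h minus T3 48 h and squares that of T3 96 h minus T3 48 h, with 1 standard error, and both use the T3 48 h arrays. Mal, Ppp1r14a, Galnt6 and Ermn sit near 0 for T3+IFNγ, at 0.49, 0.12, −0.23 and 0.30, while Ptgds, at 3.79, sits beside its T3 value of 3.75.

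Late oligodendrocyte genes were also of several kinds, with 12 of 26 higher, 1 lower and 13 not called, a median of 0.36, and 14 below T3 at 96 h. Of the 26, 2 had been set aside as interferon genes. Ptgds, which makes prostaglandin D, had signals of 11.43, 10.98 and 10.81 in T3+IFNγ cells at 96 h and of 8.46, 7.41 and 5.99 in T3 cells at 48 h. The rise of 3.79 (adjusted p = 6.25e-09) left it 0.04 from T3 at 96 h (adjusted p = 0.953), where the signals were 11.29, 10.90 and 10.91. Aspa, which splits N-acetylaspartate, rose by 1.44 (adjusted p = 0.000112), and Pla2g4a, a phospholipase, by 2.46 (adjusted p = 1.98e-06), and neither was called against T3 at 96 h. The receptor Gpr37 rose by 3.31 and the small heat shock protein Cryab by 2.57, but stayed 2.07 and 1.05 under T3 at 96 h. Septin4, a filament protein of myelin, rose 10.7-fold, at 12.20, 12.40 and 12.52 in T3+IFNγ cells, against 9.65, 8.90 and 8.31 in T3 cells at 48 h, and lay within 0.22 of T3 at 96 h.

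Of the late list, 13 members were not called against T3 at 48 h, some of them far below T3 at 96 h. Ppp1r14a, which inhibits myosin phosphatase, was 5.17, 7.23 and 7.67 in T3+IFNγ cells at 96 h and 5.96, 6.84 and 6.89 in T3 cells at 48 h, with overlap and a difference of 0.12 (adjusted p = 0.845), and lay 3.88 under T3 at 96 h. Galnt6, a glycosyltransferase, was 4.04, 3.87 and 3.69 in T3+IFNγ cells and 3.99, 3.98 and 4.31 in T3 cells at 48 h (difference −0.23, adjusted p = 0.222), while T3 cells at 96 h had 7.26, 6.59 and 6.94. The carbonic anhydrase Car2 and the actin-severing protein Gsn differed from T3 at 48 h by 0.66 (adjusted p = 0.0606) and −0.04 (adjusted p = 0.87), and from T3 at 96 h by −3.02 and −1.97. Qdpr, an enzyme of biopterin recycling, fell by 0.25 (adjusted p = 0.0204, but 0.183 without donor 1, 0.165 without donor 3 and 0.108 with only these 6 arrays). Plaat3, a phospholipase that was also higher with IFNγ at 8 h, rose by 3.82 and Anxa3, an annexin, by 3.67, and both also exceeded T3 at 96 h, by 2.49 and 4.41. Though on the late list, Anxa3 was a T3 receding gene here, at 7.52 ± 0.39 at 0 h and 5.17 ± 0.48 at T3 96 h.

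**Figure D3:**
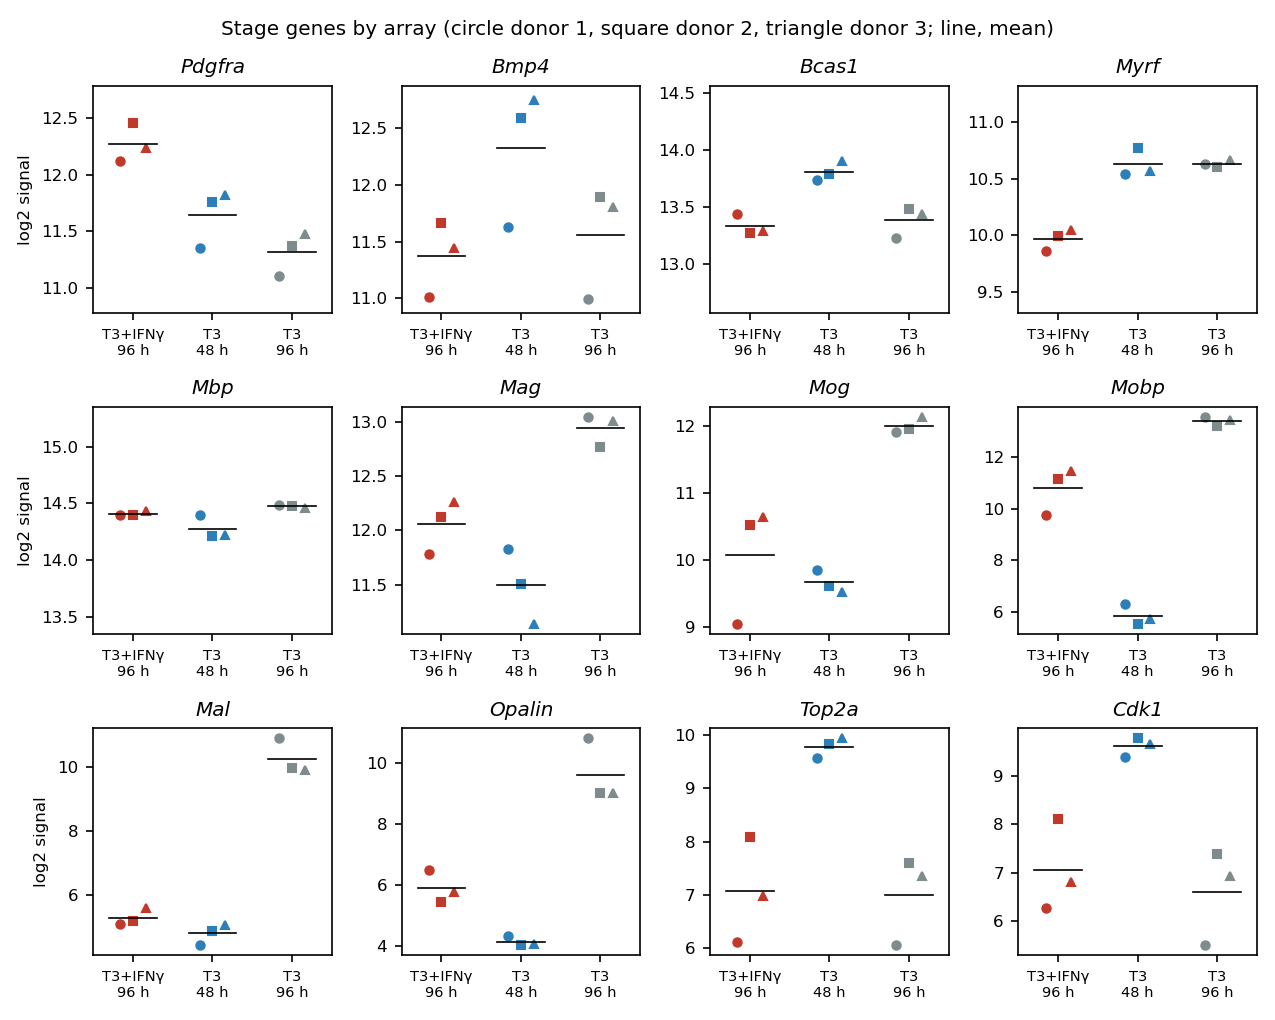
Log2 signals of 12 stage genes in each array of T3+IFNγ at 96 h, T3 at 48 h and T3 at 96 h, with a marker shape for each donor and a line at the mean; the vertical axes differ between genes and span at least 2 log2 units. Mal stays near its T3 48 h level, Mobp lies between the T3 stages, Top2a and Cdk1 lie at their T3 96 h level, and Pdgfra lies above both T3 groups.

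Of 16 measured genes of the newly formed stage, 8 were lower than in T3 cells at 48 h, 1 was higher and 7 were not called, with a median of −0.51, and T3 cells lowered 10 of them between 48 h and 96 h. Bmp4, a secreted inhibitor of differentiation, was 11.01, 11.66 and 11.44 in T3+IFNγ cells at 96 h and 11.63, 12.59 and 12.75 in T3 cells at 48 h, lower in each donor (difference −0.95, adjusted p = 0.00564), although the ranges overlapped. Bcas1, a marker of newly formed oligodendrocytes, fell by 0.48 (adjusted p = 0.00722), and the kinase Fyn fell by 0.81 (adjusted p = 0.000656). Bmp4 and Bcas1 were no longer called without donor 2 (adjusted p = 0.0862 and 0.0922) or donor 3 (0.113 and 0.146), nor Fyn without donor 3 (0.061). The phosphodiesterase Enpp6 was 10.37, 10.33 and 10.21 in T3+IFNγ cells and 11.26, 10.80 and 10.86 in T3 cells at 48 h, with no overlap and a difference of −0.67 that was not called (adjusted p = 0.161, and 0.00482 with only these 6 arrays). The transcription factor Nkx2-2, which IFNγ had raised at 8 h and which was therefore set aside, went against the list and rose by 1.24 (adjusted p = 0.000566).

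The progenitor genes moved both ways, 5 higher and 6 lower of 21, against 17.6% and 18.5% of all genes, with a median of −0.10. Pdgfra, the PDGF receptor that marks OPCs, had signals of 12.12, 12.45 and 12.23 in T3+IFNγ cells at 96 h and of 11.35, 11.76 and 11.82 in T3 cells at 48 h, with no overlap. The rise of 0.63 (adjusted p = 0.000942, and 0.0526 without donor 2) placed it nearer to T3 at 24 h, where it averaged 12.16 ± 0.49. The progenitor list did not share this. Over its 20 genes not set aside, RMS distances were 0.576 ± 0.08 to T3 at 96 h, 0.755 ± 0.181 to 48 h and 0.91 ± 0.072 to 24 h. The nearest stage was T3 at 48 h in donor 1 and T3 at 96 h in donors 2 and 3. Cspg5, Sox11 and Dll3, genes of progenitors and of Notch signalling, rose by 0.78, 0.63 and 0.44, but Dll3 lost the call without donor 2 (adjusted p = 0.12), as did Cspg5 (0.0826) and Sox11 (0.0918), which also lost it without donor 3 (0.0694 and 0.0845). The adhesion molecule Cntn1 rose by 1.32. C1ql1, the matrix proteins Tnr and Vcan, and the intermediate filament Nes had differences of −1.35, −1.33, −1.05 and −0.97, all called (Tnr not without donor 2, adjusted p = 0.0675, and Vcan not without donor 3, 0.0569), and the proteoglycan Cspg4 differed by −0.09 (adjusted p = 0.805).

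Among 15 lineage transcription factors 3 rose and 3 fell, near the 17.6% and 18.5% of all genes, with a median of −0.01. Myrf, the activator of myelin genes, was 9.86, 9.99 and 10.05 in T3+IFNγ cells at 96 h and 10.54, 10.77 and 10.57 in T3 cells at 48 h. The fall of 0.66 (adjusted p = 0.0185, but 0.134 without donor 2 and 0.0522 without donor 3) also held against T3 at 96 h, at −0.67 (adjusted p = 0.0322). Zfp488 and Tcf7l2 fell, with differences of −0.80 and −0.57, and Zfp536 and Myt1 rose by 1.56 and 0.64. Nkx6-2, a factor of late oligodendrocytes, differed by −0.25 from T3 at 48 h (adjusted p = 0.642) and by −1.53 from T3 at 96 h (adjusted p = 0.00447). Olig2 and Sox10, factors of the whole lineage, differed by −0.04 and −0.30, not called. Of 12 Sox, Hes and Id genes 4 rose and 4 fell, against 17.6% and 18.5% of all genes. Of the 12, 3 had been set aside as interferon genes. The 9 left were 0.461 ± 0.068 (RMS) from T3 at 96 h and 1.162 ± 0.134 from T3 at 48 h. Id4, an inhibitor of lineage factors, rose by 1.09 (adjusted p = 1.39e-05). Id3 rose by 2.79 (adjusted p = 0.00289, but 0.11 without the donor block and 0.0616 without donor 3), with signals of 8.98, 10.68 and 11.11 in T3+IFNγ cells and of 6.01, 8.09 and 8.29 in T3 cells at 48 h, where donor 1 was lowest in both groups.

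Cell division genes fell as a group. Of 35 measured, 34 were lower in T3+IFNγ cells at 96 h than in T3 cells at 48 h and 0 were higher by limma, with a median of −1.76 (−1.92, −1.37 and −2.05 in donors 1, 2 and 3). T3 cells lowered all 35 between 48 h and 96 h, with a median of −2.07. Top2a, the topoisomerase of dividing cells, had signals of 6.12, 8.09 and 6.99 in T3+IFNγ cells and of 9.57, 9.83 and 9.93 in T3 cells at 48 h. The 6.54-fold fall (log2 difference −2.71, adjusted p = 1.52e-06) was seen in each donor, and T3 cells at 96 h stood 0.06 away, at 6.07, 7.60 and 7.35. The mitotic kinases Ttk and Cdk1, the helicase subunit Mcm6 and the proliferation marker Mki67 fell, with differences of −2.65, −2.55, −2.61 and −2.39, and Tyms, which makes thymidylate, differed by −0.36 (adjusted p = 0.19). Donor 2 kept the highest Top2a, Cdk1 and Ttk of the T3+IFNγ cells. In bulk RNA fewer dividing cells and less RNA per cell cannot be told apart, here or for any other list.

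Regulators around the cycle fell with them in part. Cdkn1c, a CDK inhibitor, was 10.28, 9.47 and 9.56 in T3+IFNγ cells and 11.72, 11.82 and 11.94 in T3 cells at 48 h, a difference of −2.05 (adjusted p = 6.23e-07), and stood 1.06 under T3 at 96 h (adjusted p = 0.0024). The cyclins Ccnd2 and Ccnd1 fell, with differences of −0.73 and −0.63, and were no longer called without donor 2 (adjusted p = 0.239 and 0.131) or donor 3 (0.145 and 0.199). The CDK inhibitors Cdkn1a and Cdkn1b rose by 0.70 and 0.61 (Cdkn1a not without donor 3, adjusted p = 0.143). Of 19 growth factor feedback genes 5 fell and 2 rose, against 18.5% and 17.6% of all genes. Egr1, an immediate early factor, was 8.60, 8.97 and 8.74 in T3+IFNγ cells and 10.23, 11.40 and 10.30 in T3 cells at 48 h, a difference of −1.87 (adjusted p = 0.00084). Etv5, Dusp6 and Spry4, targets or brakes of ERK signalling, fell, with differences of −1.44, −1.43 and −1.32, and Fos, set aside because IFNγ raised it at 8 h, rose by 1.38.

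Sterol synthesis genes fell without exception, 18 of 18 measured, with a median of −0.93. T3 cells lowered 15 of the 18 between 48 h and 96 h, with a median of −0.72. Insig1, a sensor that holds the pathway in check, was 10.83, 11.14 and 11.04 in T3+IFNγ cells and 12.56, 12.13 and 12.20 in T3 cells at 48 h, a difference of −1.30 (adjusted p = 2.41e-05), and stood 0.58 under T3 at 96 h (adjusted p = 0.0468). Hsd17b7, Stard4 and Lss, enzymes and a carrier of the pathway, fell, with differences of −1.74, −1.53 and −1.38. Of 18 fatty acid and myelin lipid genes 9 fell and 1 rose. Fads2 and Scd, fatty acid desaturases, fell, with differences of −1.29 and −1.27, and Acly, which feeds the pathway with acetyl-CoA, fell by 1.10. Fa2h, which makes the hydroxylated lipids of myelin, was 8.41, 8.51 and 8.57 in T3+IFNγ cells and 9.76, 9.66 and 9.52 in T3 cells at 48 h, a difference of −1.15 (adjusted p = 0.000184), and T3 cells at 96 h, at 9.68, 9.44 and 9.33, were not called against T3 at 48 h (difference −0.17, adjusted p = 0.611). Cers2, a ceramide synthase of long chains, fell by 0.38 against T3 at 48 h and lay 1.11 under T3 at 96 h. The desaturase Degs1 rose by 0.56.

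**Figure D4:**
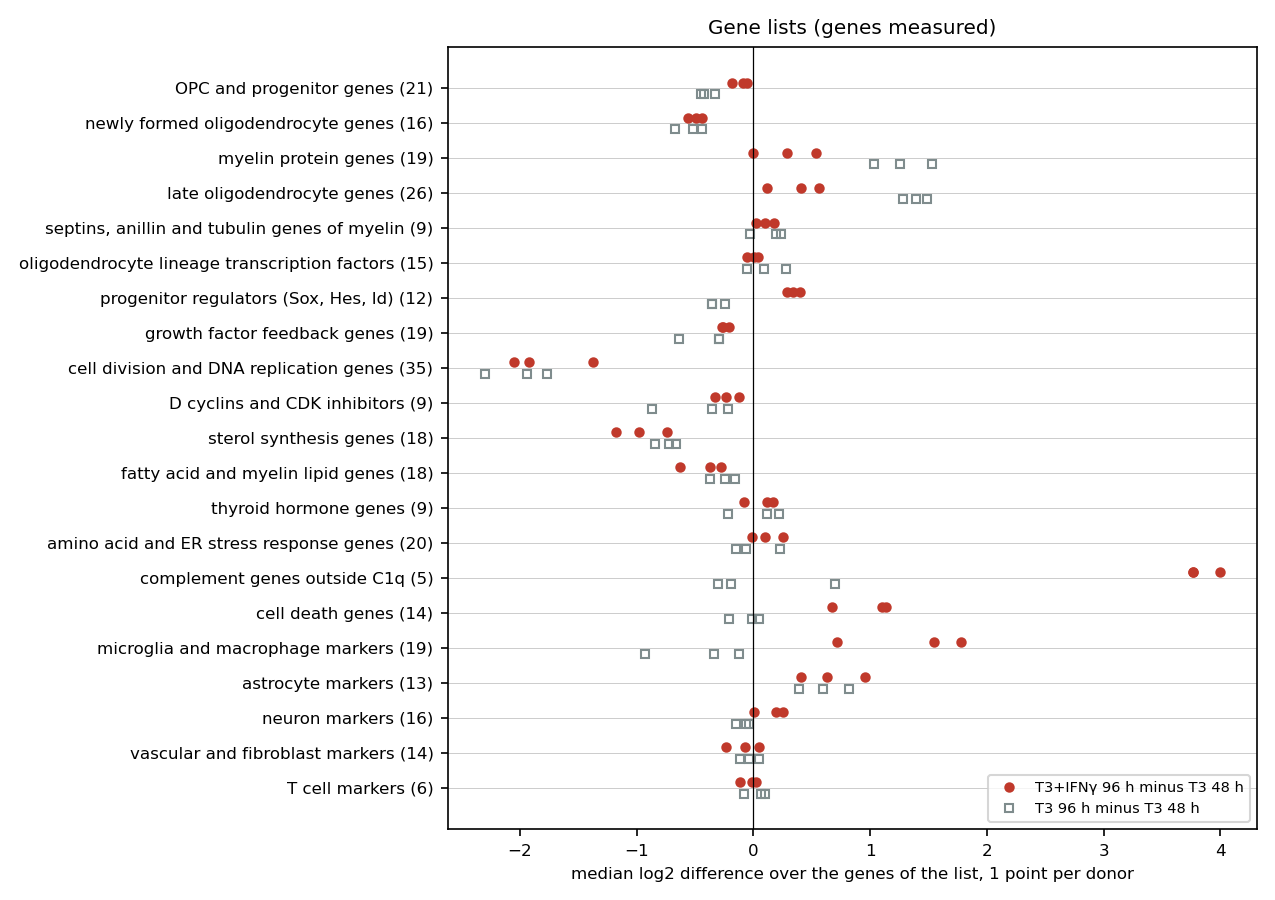
Each row is a gene list with the number of genes measured. Points give, for each donor, the median log2 difference of the list for T3+IFNγ 96 h minus T3 48 h (filled) and for T3 96 h minus T3 48 h (open). The medians of cell division and sterol synthesis genes lie below 0 for both, those of myelin protein genes are 0.00 to 0.54 for T3+IFNγ and 1.03 to 1.53 for T3 at 96 h, and those of complement, cell death and microglia genes lie above 0 for T3+IFNγ in each donor.

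Of 9 thyroid hormone genes 2 were higher, against 17.6% of all genes, and 0 lower by limma, with a median of 0.09. Klf9, a direct target of the T3 receptor, was 10.34, 10.08 and 10.36 in T3+IFNγ cells at 96 h and 9.13, 9.17 and 9.33 in T3 cells at 48 h, a rise of 1.05 (adjusted p = 6.71e-06), and was not called against T3 at 96 h (difference −0.30, adjusted p = 0.17). The clock factor Dbp rose by 0.48 (adjusted p = 0.00819, but 0.0962 without donor 2 and 0.0855 without donor 3). Of 20 amino acid and ER stress genes 8 rose and 3 fell, with a median of 0.08. Atf3 and Ddit3, factors of the stress response, rose by 2.90 (adjusted p = 3.81e-08) and 2.43 (adjusted p = 2.20e-08), and both also exceeded T3 at 96 h, by 1.24 and 1.35. Chac1, which degrades glutathione, and Slc7a11, the cystine transporter, rose by 1.63 and 1.44, and the lipoprotein receptor Vldlr fell by 1.0. Shmt2 and Psat1, enzymes of serine metabolism, fell, with differences of −0.57 and −0.27, and were no longer called without donor 2 (adjusted p = 0.258 and 0.217) or donor 3 (0.176 and 0.144). Of 9 septin, anillin and tubulin genes 2 rose and 3 fell, against 17.6% and 18.5% of all genes. The brain tubulin Tubb4a fell by 1.12 (adjusted p = 0.000807, and 0.0507 without donor 2) and the septin gene Septin8 rose by 0.81.

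Of 14 cell death genes 12 rose and 1 fell, with a median of 1.01, and 9 of the 14 had been set aside as interferon genes. Gsdmd, the pore former of pyroptosis, rose by 2.55, the caspase Casp12 by 2.13, the BH3 protein Bid by 1.77 and the death receptor Fas by 1.19, and Bcl2l11, another BH3 protein, fell by 0.72 (adjusted p = 0.0154, but 0.279 without donor 2 and 0.125 without donor 3). Of 5 complement genes 4 rose, and 3 of the 5 had been set aside as interferon genes. Serping1, the inhibitor of C1, and the protease C1s rose by 6.13 and 4.69, and C3 by 3.44.

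Marker lists of other cell types were read in the same arrays. Of 19 microglia and macrophage markers 13 were higher in T3+IFNγ cells at 96 h than in T3 cells at 48 h and 0 lower by limma, with a median of 1.26, and the mean log2 signal of the list was 6.27 to 7.80 in T3+IFNγ arrays and 5.32 to 6.30 in T3 48 h arrays. Aif1, a microglial calcium-binding protein, was 8.65, 6.52 and 9.41 in T3+IFNγ cells and 5.60, 4.63 and 7.62 in T3 cells at 48 h. The ranges overlapped across donors while each donor rose (difference 2.24, adjusted p = 0.000138). C1qb, a complement subunit made by microglia, was 9.35, 7.93 and 10.09 in T3+IFNγ cells and 4.82, 4.60 and 6.17 in T3 cells at 48 h (difference 3.93, adjusted p = 5.41e-07). P2ry12, a receptor of resting microglia that was also higher with IFNγ at 8 h, rose by 2.49. Cx3cr1 and Tmem119, further defining microglial genes, lay at 6.0 or less in all 6 arrays and differed by 0.03 (adjusted p = 0.839) and −0.28 (adjusted p = 0.14), and Trem2 differed by −0.26 (adjusted p = 0.526). Aif1 and C1qb were highest in donor 3 and lowest in donor 2 in both groups. Of the 19 markers 7 were T3 receding genes and 3 had been set aside as interferon genes. Against T3 at 96 h, 14 of the 19 were higher and 0 lower by limma (11.0% and 7.90% of all genes), with a median of 1.91. The part of a fall in T3 culture in the gap to T3 at 48 h was not tested. Aif1 averaged 7.92 ± 0.72 at 0 h, 5.95 ± 1.53 at T3 48 h, 5.04 ± 0.67 at T3 96 h and 8.19 ± 1.49 with IFNγ at 96 h (SD, n = 3). For Fcer1g these were 10.07 ± 0.52, 8.32 ± 0.97, 7.19 ± 0.74 and 9.58 ± 1.31. For C1qb they were 7.33 ± 1.27, 5.20 ± 0.85, 4.97 ± 0.38 and 9.13 ± 1.10, with IFNγ above every T3 stage. How far microglia in the cultures contribute to the genes raised with IFNγ was not tested.

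**Figure D5:**
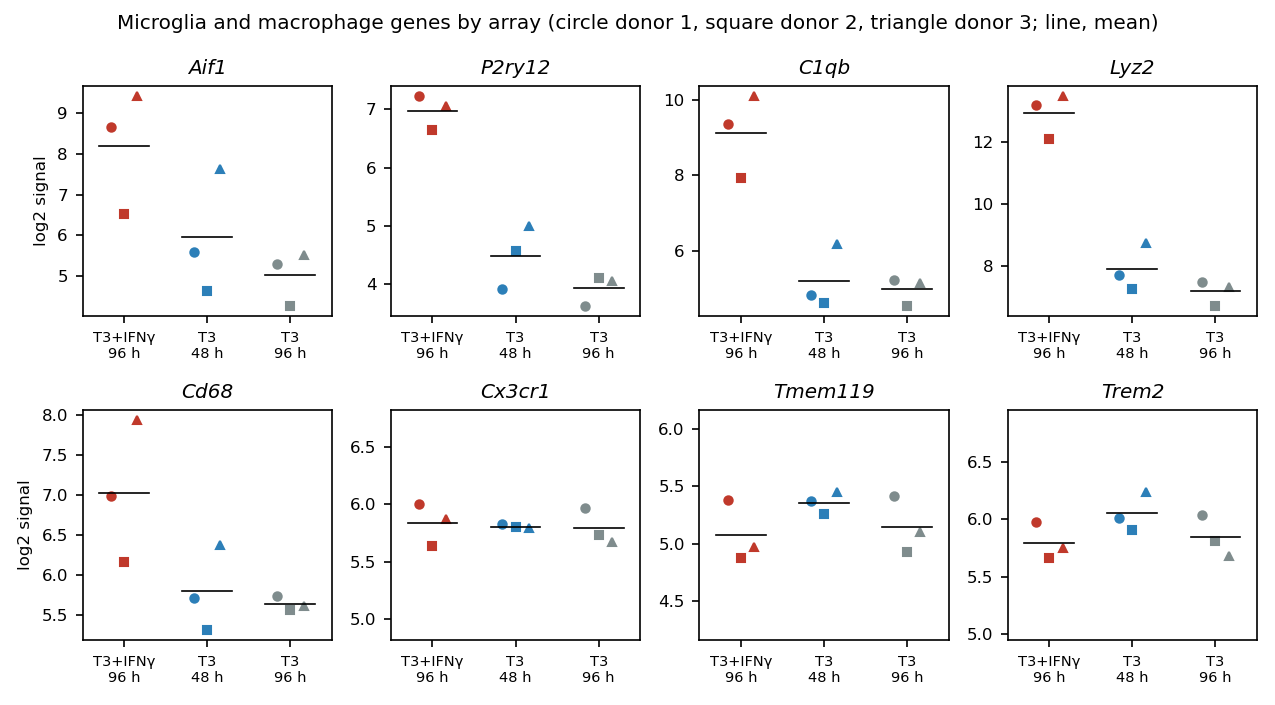
Log2 signals of 8 microglia and macrophage genes in each array of T3+IFNγ at 96 h, T3 at 48 h and T3 at 96 h, with a marker shape for each donor and a line at the mean. Aif1, P2ry12, C1qb, Lyz2 and Cd68 are higher with IFNγ in each donor, by 2.24, 2.49, 3.93, 5.03 and 1.22 on average, and Cx3cr1, Tmem119 and Trem2 are not called.

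Of 13 astrocyte markers 7 rose and 1 fell, with a median of 0.63. Clu, a chaperone, and Agt, angiotensinogen, rose by 2.16 and 1.76, whereas Gfap, the astrocyte filament, differed by 0.68 with overlap (adjusted p = 0.387) and the receptor Fgfr3 fell by 0.73. T3 cells raised 8 of the 13 between 48 h and 96 h, with a median of 0.54, and the median against T3 at 96 h was −0.14. Of 16 neuron markers 4 rose and 2 fell, against 17.6% and 18.5% of all genes, with a median of 0.09. The neurofilament Nefm was 8.24, 8.27 and 8.52 in T3+IFNγ cells and 6.24, 6.27 and 6.27 in T3 cells at 48 h, a rise of 2.08 (adjusted p = 7.99e-10), and Gap43, a growth cone protein, fell by 1.51. Of 14 vascular and fibroblast markers 2 fell, among them Tagln by 1.53, and 0 rose by limma. Of 6 T cell markers only Cd8a was called, with a rise of 1.5 (adjusted p = 5.71e-05), while the T cell receptor genes Cd3d, Cd3e and Cd3g differed by −0.14, −0.01 and −0.18. The RNA quality controls were close, with a Gapdh 3′ minus 5′ log2 difference of −0.257 to −0.233 in T3+IFNγ arrays and −0.261 to −0.194 in T3 48 h arrays, but that of beta-actin was 0.976 to 1.10 in T3+IFNγ arrays and 0.801 to 0.943 in T3 48 h arrays, and the part of this in the differences was not tested.

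The 10 largest rises outside the interferon set joined late oligodendrocyte genes with immune genes. That set holds listed genes and genes raised at 8 h, so genes that IFNγ raised only later can remain outside it. With genes raised at 8 h or 24 h set aside, 1653 genes were higher than at T3 48 h, against 2025. Lyz2, the lysozyme of macrophages, was 13.21, 12.11 and 13.48 in T3+IFNγ cells at 96 h and 7.71, 7.24 and 8.74 in T3 cells at 48 h (difference 5.03, adjusted p = 2.57e-11). In T3 cells it averaged 10.18 ± 0.57 at 0 h and 7.17 ± 0.41 at 96 h, so that the IFNγ-treated cells exceeded every T3 stage. The acute phase gene Saa3, the class I gene RT1-N2 and Pcolce, an enhancer of procollagen processing, rose by 4.77, 4.63 and 4.82 and were at 6.14 or less in T3 cells at both 48 h and 96 h. Car14, a membrane carbonic anhydrase, was 9.86, 10.09 and 10.15 in T3+IFNγ cells and 6.72, 5.49 and 5.47 in T3 cells at 48 h (difference 4.14, adjusted p = 1.59e-12), and 0.74 under T3 at 96 h. Kndc1 and Pls1, an actin bundler, rose by 4.04 and 3.84 and were 0.84 and 1.25 under T3 at 96 h, whereas the adhesion receptor Adgrg2 rose by 3.82 and was 2.76 above it. Of the receding genes that were higher, Lyz2, C1qb and Anxa3 rose most, followed by Tmem176b and Tmem176a, a pair of membrane proteins of myeloid cells, by 3.32 and 3.16.

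The largest fall was that of Cpm, a membrane carboxypeptidase, at 7.18, 7.13 and 6.67 in T3+IFNγ cells at 96 h, against 10.65, 10.68 and 10.75 in T3 cells at 48 h. The groups were 13.1-fold apart (difference −3.71, adjusted p = 6.69e-11). In T3 cells Cpm averaged 5.07 ± 0.21 at 0 h, 5.38 ± 0.14 at 8 h, 9.41 ± 0.64 at 24 h and 9.37 ± 0.11 at 96 h, so the level with IFNγ at 96 h lay between those of T3 at 8 h and 24 h. Greb1l fell by 2.96, the basement membrane protein Nid1 had a difference of −2.73 and the cadherin Cdh13 one of −2.52, and the other 6 of the 10 largest falls, Shcbp1, Top2a, Dscc1, Ttk, Mcm6 and Cdk1, are genes of dividing cells. Of the 25 late genes that fell, Nt5e, an ectoenzyme that makes adenosine, fell most, followed by Rassf10, the centriole kinase Plk4, Wwc2 and the parvin Parvb, with differences of −2.36, −1.85, −1.70, −1.62 and −1.15. Plk4, at 6.14, 7.31 and 7.16 in T3+IFNγ cells and 8.41, 8.76 and 8.54 in T3 cells at 48 h, was also 2.15 under T3 at 96 h (adjusted p = 4.18e-07).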

How the data were processed

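RNA of 27 OPC cultures was hybridised to Affymetrix rat arrays. The deposited values are log2 signals per probe set, which the authors computed with RMA (background correction, quantile normalization and summary over probes; the submitters' notes name RMA and limma without versions). They run from 2.28 to 14.49 with array medians of 5.95 to 6.03 and were used as deposited, with no filter on low values. Of 31099 probe sets, 20832 have 1 gene symbol in the platform annotation, 436 several and 9831 none, and the last 2 kinds were left out. The brightest probe set over all arrays stood for each of 14218 genes.

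R 4.3.3 with limma 3.58.1 fitted group means over all 27 arrays with the donor as a block, with eBayes and Benjamini-Hochberg adjustment over all genes. Deviations from group means correlated between arrays of the same donor (r of 0.158 to 0.267 over the 3 pairs of T3+IFNγ 96 h and T3 48 h arrays), and the labelled donors were taken as pairs. The median between donors, −0.122, is no separate evidence, because the deviations within a group sum to 0. With 3 arrays a group, their number limits the precision. A gene was set aside if it was in an interferon list or was called higher with T3+IFNγ than T3 at 8 h. The T3 step was projected in each donor on the mean step of the other donors. Promoters were matched by Entrez identifier for 11701 genes. Python 3.11.15, pandas 2.3.3, NumPy 2.4.6 and matplotlib 3.10.9 did the rest, and the fit and the projection were tested on simulated data. The comparison, the 27 gene lists and the tests were chosen with earlier results of these data known. Of 498 listed genes 440 were measured, and some listed genes are not reported here.

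Named genes are the 10 largest rises and falls outside the interferon set and the 5 largest interferon rises with 1 direction in every donor, the called members of each list that moved most (4 at most) and any against their list, fixed stage genes, and the 5 late genes that fell and 5 receding genes that rose most. Further list members, most of them not called, were named after their values were seen. Alternatives changed the block, the arrays, the probe set rule, a filter on dim genes, the centring, the fold limit, the donors and the genes set aside.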

Additional observations from a re-analysis of the deposited data

How the results depend on the processing

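Under each alternative run, fewer genes differed from T3 at 96 h than from any other T3 stage, and the RMS distance to T3 96 h stayed under that to T3 48 h where it was recomputed. Counts depended on the donors. Leaving out each donor in turn gave 1472 to 2454 genes higher and 1295 to 2640 lower against T3 48 h, and 1075 to 1993 higher and 1279 to 2611 lower with interferon genes set aside. The same omission gave 12 to 20 late genes lower (25 in all donors), 3445 to 5525 genes against T3 24 h and 955 to 1840 against T3 96 h. Without the replicate block, which the donor pairing provides, 1661 genes were higher and 2084 lower with interferon genes set aside. The calls of 6 named genes were then lost. These were Ccnd1, Shmt2, Bcl2l11, Id3, Ier3 and Mag (adjusted p = 0.135, 0.0607, 0.0724, 0.11, 0.0828 and 0.0531 by limma).

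At 2-fold or more, 679 genes were higher and 363 lower, 414 and 356 with interferon genes set aside, 214 late genes were higher and 5 lower, 26 receding genes were higher and 128 lower, and 2267, 1621, 969 and 325 genes differed from PDGF 0 h and T3 8, 24 and 96 h. Median centring raised the count against T3 96 h to 3338. Leaving out dim genes gave 16 late genes lower and an RMS distance of 0.600 to T3 48 h. Setting aside genes raised at 8 h or 24 h left 32 receding genes higher. With no fold limit on the classes, 975 late genes were higher and 162 lower, and 289 receding genes were higher and 1540 lower. At 4-fold these were 163 and 4, and 3 and 17. The RMS distance to T3 48 h and T3 96 h was 0.617 and 0.501 with only the lists set aside and 0.695 and 0.593 with none. An alternative chosen after seeing the data left out the T3+IFNγ arrays of donor 2 at 8 h and 24 h, whose Gapdh 3′ minus 5′ difference stood apart. It gave 2533 genes higher and 2665 lower, 2108 and 2646 with interferon genes set aside, 5673 against T3 24 h and 2300 against T3 96 h.

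For the 150 named genes, 989 of 1050 combinations of gene and alternative kept direction and call, 54 lost the call, 19 of them without donor 2 and 21 without donor 3, and 7 gained it. Signals near the top of the scale, such as Mbp, limit what the arrays resolve.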
